A study of Mus musculus with 22 samples.

Results

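Polysomal RNA of primary mouse bladder urothelial organoids was compared between Arid1a knockout (KO) and Arid1a wild type (WT). Organoids are cultures of epithelial cells grown in 3 dimensions, here from the lining of the bladder. The 6 libraries, WT 1 to 3 and KO 1 to 3, were chosen by their labels alone, as all libraries of the polysome fraction among the 22 of the series. Both genotypes were cultured without any treatment named in the labels, and the strain, the age of the animals, the deleted part of Arid1a, the way it was deleted and whether the cultures shared an animal are not given in the sources read here. The series also holds 3 WT and 3 KO libraries each of total RNA and of the subpolysome fraction from organoids of the same kind, used below only to ask where polysomes differed.

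Arid1a encodes a subunit of the BAF (SWI/SNF) complex, which moves nucleosomes with energy from ATP and so opens enhancers and promoters, and the gene is often mutated in bladder cancer. When cell lysate is spun through a gradient, mRNAs carrying several ribosomes sediment as polysomes and those carrying few or none stay in lighter, subpolysomal fractions. The level of an mRNA in polysomes therefore depends on how much of it the cell holds and on how well it is loaded with ribosomes. The urothelium is layered, with basal cells that express Krt5 and Trp63 under intermediate cells and luminal umbrella cells, whose surface is plated with uroplakins.

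The polysome libraries held 64911189 to 76594655 counts over 24421 genes, so that a level of 1 CPM (counts scaled to library size) stood for at least 64.9 counts. CPM values below are scaled by TMM factors, which equalise the bulk of genes between libraries, and they are shares of a library, so the amount of RNA in polysomes was not measured. Genotype set the first axis of a principal component analysis, which held 76.2% of the variance. Deviations from the group means went together in libraries of the same number (r = 0.186, 0.197 and 0.249 across genes), so the replicate number was kept as a block. In the other 6 pairings r was -0.192 to -0.003. Deviations cancel within a group, so these negative values follow in part from the positive ones and are no separate evidence of pairing. Rn45s, the precursor of ribosomal RNA, took 1.68%, 0.208% and 2.7% in WT and 0.653%, 0.307% and 0.476% of counts in KO, and leaving that row out gave 2528 genes higher and 2502 lower against 2527 and 2503 with it. Since no label calls the replicates separate animals or cultures, p-values speak only of library to library spread, possibly technical.

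Of 13066 genes tested with edgeR's quasi-likelihood test, 2527 (19.3%) were higher and 2503 (19.2%) lower in KO polysomes at an adjusted p under 0.05, 38.5% in all. At least 2 times higher were 972 of them (7.44% of genes tested) and at least 2 times lower 746 (5.71%). The 3 KO libraries did not overlap the 3 WT libraries for 5494 genes (42%). The median log2 fold change over all genes tested was 0.0029. The test leans on a spread shared between genes (77.31 prior degrees of freedom beside 2 of the gene's own), and without the replicate block 1950 genes were higher and 1807 lower.

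**Figure D1:**
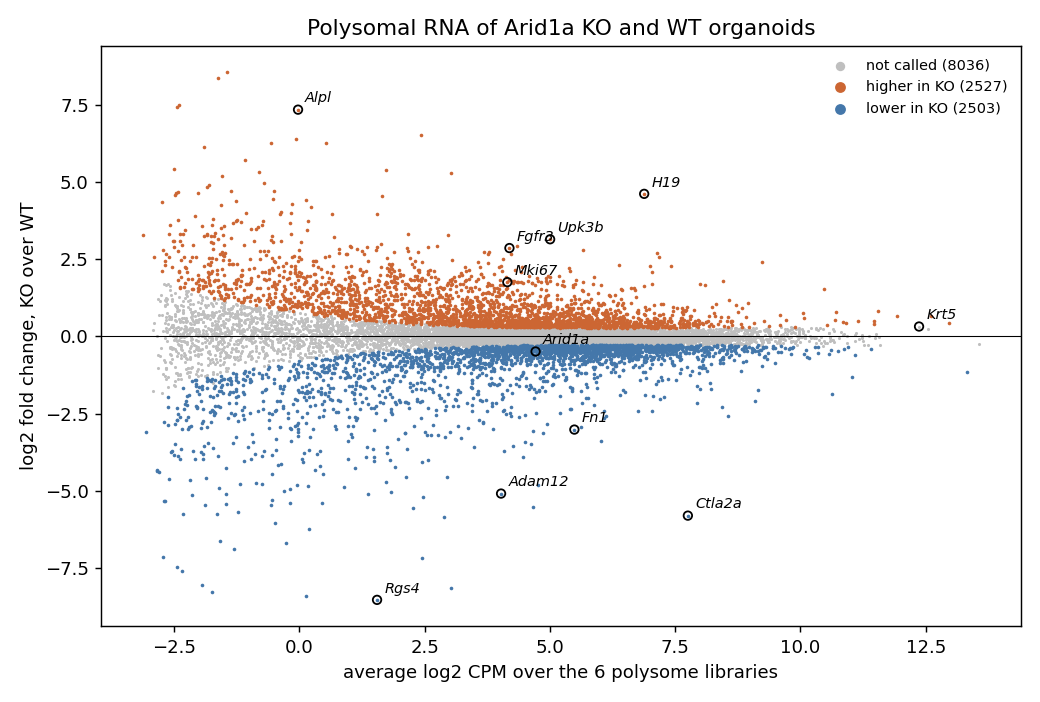
Log2 fold change between KO and WT polysomes (vertical axis) against the average log2 CPM over the 6 libraries (horizontal axis), 1 point per gene tested. Genes called higher (2527) and lower (2503) lie on both sides of 0 at all levels of expression, with H19 and Ctla2a farthest out among well expressed genes.

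Arid1a reads fell in KO polysomes but were not lost. The gene (chr4:133679008-133756769, GRCm38, minus strand) had 39.5, 27.9 and 24.2 CPM in WT against 27.5, 22.4 and 15.7 CPM in KO. In each of 3 pairs of equal number the KO value was below the WT value, while KO 1 lay above WT 3, so the groups overlap. The change was -0.49 on the log2 scale (SE 0.12, adjusted p = 0.00056), and without the block the adjusted p was 0.0817. Reads from exons outside a deleted part would still be counted, so the row does not measure intact mRNA. Arid1a also fell in total RNA (log2 -0.60, adjusted p = 3.84e-06), but no fall was seen in the subpolysome libraries, where the log2 change was 0.19 (adjusted p = 0.206), with 2025, 1802 and 1633 counts in WT and 2466, 2046 and 1538 in the libraries labelled KO. Arid1b, the paralog that takes the same place in BAF, had 28.7, 23.6 and 21.5 CPM in WT against 32.1, 32.0 and 24.8 CPM in KO (log2 change 0.27, SE 0.12, adjusted p = 0.0662). It passed in 2 of 15 alternatives, library totals (0.0323) and the fit on all 18 organoid libraries (0.0463). Of 26 BAF subunit genes tested, 1 was called higher (Smarcd2) and 5 lower (Arid1a, Arid2, Smarce1, Ss18l1 and Bcl11b), and without the block 0 and 2. The lower calls were 19.2% of the list, the same as the 19.2% of all genes, and the higher calls 3.85% against 19.3%. Ss18l1, a neuronal BAF subunit, went from 6.83, 7.17 and 6.47 to 4.29, 4.69 and 2.96 CPM, and Bcl11b, a zinc finger protein found in BAF, from 11.3, 7.28 and 8.79 to 5.66, 6.69 and 4.75 CPM. Among 32 Polycomb genes, which encode the repressive complexes that oppose BAF, 5 were called higher and 6 lower (median log2 0.02). These shares, 15.6% and 18.8%, were also near those over all genes. Phf19, which brings Polycomb repressive complex 2 to chromatin, was at 0.535, 0.319 and 0.456 CPM in WT against 4.11, 1.82 and 2.87 CPM in KO (log2 change 2.71, SE 0.28, adjusted p = 9.87e-14).

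Among well expressed genes (average log2 CPM of at least 4), the largest rise was of H19, an imprinted noncoding RNA of fetal tissue (chr7:142575529-142578143, GRCm38, minus strand). It had 11.04, 8.45 and 8.13 CPM in WT polysomes and 240, 193 and 246 CPM in KO polysomes, 24.6 times more (log2 4.62, SE 0.14, adjusted p = 7.29e-45). Every KO library was far above every WT library. H19 is not known to encode a protein, and its counts in this fraction show only where the RNA sedimented. Igf2, the imprinted growth factor gene on the same chromosome (chr7:142650766-142666816), went from 1.23, 0.347 and 0.913 CPM to 7.82, 9.27 and 6.98 CPM (log2 3.32, SE 0.23, adjusted p = 2.02e-22). Of the 50-base stretches of Igf2 transcripts, 61.2% also occur in transcripts annotated to Gm49394, so reads of these genes may not be separable.

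Upk3b, a uroplakin, followed with 5.98, 6.74 and 6.67 CPM in WT against 49.1, 61.5 and 62.3 CPM in KO (log2 change 3.15, SE 0.13, adjusted p = 2.01e-35). The chemokine receptor Ccr2 rose from 4.55, 4.55 and 4.99 to 35.8, 36.5 and 34.3 CPM (log2 2.92), and Fgfr3, a growth factor receptor activated by mutation in many bladder tumours, from 6.12, 3.86 and 3.47 to 29.8, 33.1 and 33.0 CPM (log2 2.86). Wif1, a secreted inhibitor of Wnt ligands, rose from 15.6, 10.9 and 12.2 to 91.5, 88.8 and 84.5 CPM (log2 2.79). The other 5 of the 10 largest rises were of Ptprr, a phosphatase that acts on MAP kinases, Cnfn, a protein of the cornified envelope, Ndrg2, Ppap2b, a lipid phosphatase, and Gstm1, a glutathione transferase, with log2 fold changes between 2.42 and 2.69. Gstm1 had 201, 202 and 162 CPM in WT against 912, 1173 and 938 CPM in KO, and 18.9% of its 50-base stretches recur in other transcripts, most often of Gstm2-ps1. In each of the 10, all KO libraries lay above all WT libraries, as the rule that chose them asks.

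Among the same well expressed genes, the largest fall was of Ctla2a, which encodes an inhibitor of cathepsin-like cysteine proteases (chr13:60934155-60936625, GRCm38, minus strand). WT polysomes had 268, 507 and 496 CPM and KO polysomes 5.61, 10.8 and 6.21 CPM, 56.2 times less (log2 -5.81, SE 0.15, adjusted p = 1.7e-48). Its neighbour Ctla2b (chr13:60895350-60897447) went from 36.7, 62.6 and 58.7 to 1.43, 2.21 and 1.94 CPM (log2 -4.81, SE 0.15, adjusted p = 1.8e-44). In both genes WT 1 was the lowest WT library, and KO 2 the highest KO library. The transcripts are alike: 25.5% of the 50-base stretches of Ctla2a and 69% of those of Ctla2b recur in transcripts of other genes, so part of the counts of either may come from its relatives. The 250 bases before the start of both genes (RefSeq, GRCm38.p6, 5′ to 3′ in the direction of transcription) are shown because both hold the AP-1 motif TGANTCA (searched on both strands), here in capitals, 129 bases before the start of Ctla2a and 143 before that of Ctla2b. AP-1 is the dimer of Fos and Jun proteins. This pair of promoters was picked after its values were seen, Ctla2a has a second listed start whose window holds the same match, and 6.75% of 32851 promoters in the table hold the motif.
Ctla2a (chr13:60936626-60936875, minus strand): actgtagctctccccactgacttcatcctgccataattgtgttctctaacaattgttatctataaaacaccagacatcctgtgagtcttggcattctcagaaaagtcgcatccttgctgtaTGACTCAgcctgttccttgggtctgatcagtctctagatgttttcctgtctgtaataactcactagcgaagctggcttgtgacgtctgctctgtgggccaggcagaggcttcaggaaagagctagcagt
Ctla2b (chr13:60897448-60897697, minus strand): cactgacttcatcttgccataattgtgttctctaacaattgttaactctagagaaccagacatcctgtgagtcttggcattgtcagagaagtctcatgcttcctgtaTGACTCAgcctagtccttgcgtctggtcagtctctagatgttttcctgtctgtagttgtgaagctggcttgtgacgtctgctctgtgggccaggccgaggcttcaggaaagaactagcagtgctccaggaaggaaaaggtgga

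Slco2a1, a transporter that takes up prostaglandins, fell from 51.8, 51.0 and 46.9 to 1.31, 0.994 and 0.942 CPM (log2 -5.53, SE 0.16, adjusted p = 1.31e-46). Adam12, a membrane-bound metalloprotease, fell from 29.4, 36.1 and 29.4 to 0.826, 1.46 and 0.568 CPM (log2 -5.10, SE 0.17, adjusted p = 7.1e-42). Next among well expressed genes were Rgs5, a regulator of G protein signalling (log2 -3.91), Csf2, the cytokine GM-CSF (log2 -3.71), C1qtnf1, Fam49a, the chemokine Ccl2 (log2 -3.43), which is a ligand of Ccr2, and the serine protease Prss23 (log2 -3.40). Csf2 had 23.5, 35.2 and 36.3 CPM in WT against 2.35, 2.53 and 2.21 CPM in KO. Ccl2 had 40.9, 38.95 and 44.5 CPM in WT against 3.81, 4.16 and 3.53 CPM in KO. In these genes every KO library lay below every WT library, as the rule that chose them asks, and the fitted fold was at least 10.6.

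**Figure D2:**
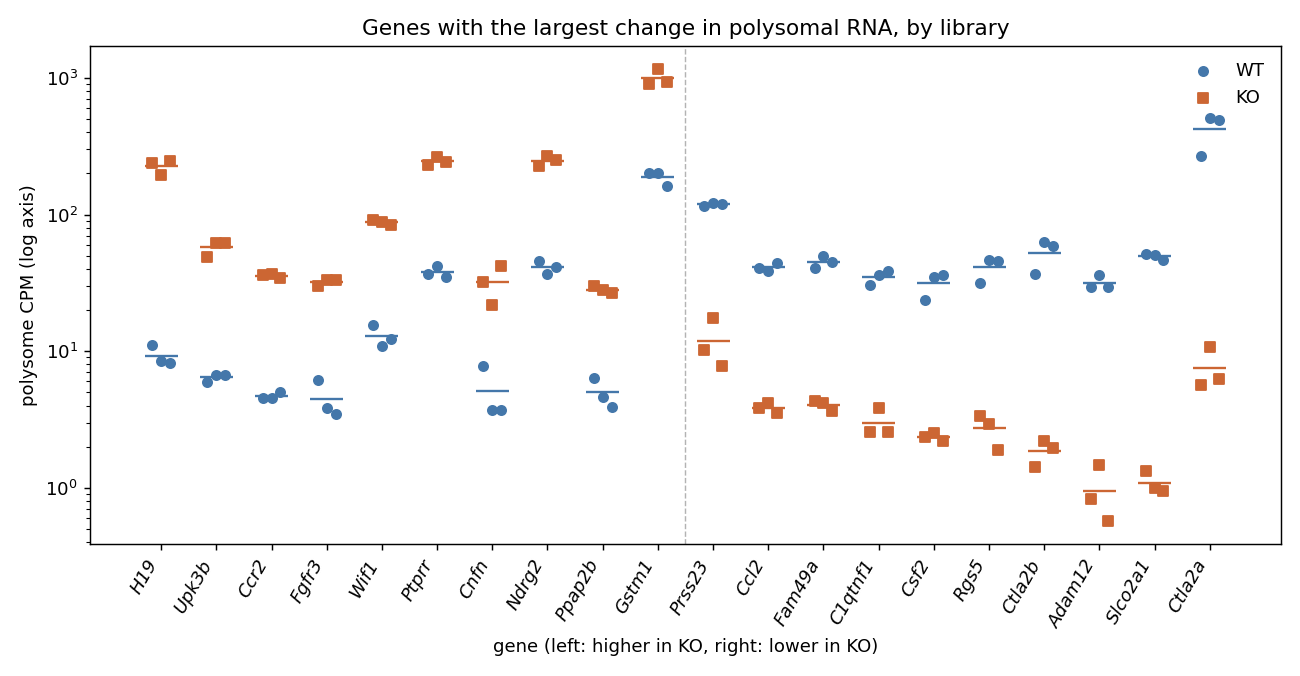
Polysome CPM (log axis) of the 10 genes with the largest rise (left) and the 10 with the largest fall (right) among well expressed genes. Points are the 3 WT (circles) and 3 KO (squares) libraries and bars their means, from H19 (240, 193 and 246 CPM in KO) to Ctla2a (5.61, 10.8 and 6.21 CPM in KO). The rule that chose the 20 left out predicted models, pseudogenes and genes whose groups overlap.

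Gene lists are described by their members that passed the filter on low counts, 1309 of 1430 entries over 43 lists. Counts of calls in a list are to be read beside the 19.3% higher and 19.2% lower of all genes tested. Luminal genes rose in most cases. Of 28 members tested, 16 were called higher and 3 lower, 57.1% and 10.7% against 19.3% and 19.2% of all genes (median log2 0.51, against 0.0029 over all genes). All 5 uroplakins on the list rose. Upk3a went from 48.9, 56.0 and 68.7 to 201, 298 and 354 CPM (log2 2.27, SE 0.12, adjusted p = 4.02e-28) and Upk2 from 4.69, 3.56 and 4.91 to 20.4, 21.99 and 25.3 CPM (log2 2.37, SE 0.14, adjusted p = 1.56e-25). Pparg, a nuclear receptor that drives luminal differentiation, rose from 28.2, 30.8 and 27.0 to 67.8, 73.0 and 58.8 CPM (log2 1.21, SE 0.12, adjusted p = 1.09e-14). The 3 members that fell were Krt20, Cd24a and Tmprss4. Krt20, a keratin of fully mature umbrella cells, had 5.14, 5.09 and 4.35 CPM in WT against 0.976, 1.97 and 0.628 CPM in KO (log2 change -2.13, SE 0.22, adjusted p = 2.62e-13). Uroplakins and Krt20 are both on the luminal list and moved in opposite directions here. In these bulk libraries, more cells of a type and more RNA per cell cannot be told apart.

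Basal genes were called more often lower than higher. Of 28 tested, 6 (21.4%, against 19.3% of all genes) were called higher and 11 (39.3%, against 19.2%) lower (7 lower without KO 1, and 9 and 9 with library totals in place of TMM factors), with a median log2 of -0.14. Trp63, the master transcription factor of basal cells, rose from 166, 156 and 161 to 240, 247 and 194 CPM (log2 0.49, SE 0.12, adjusted p = 0.000448). Ngfr, a neurotrophin receptor of basal stem cells, rose from 21.2, 12.9 and 13.5 to 67.6, 61.2 and 75.7 CPM (log2 2.13), and the membrane glycoprotein Pdpn from 48.3, 52.9 and 48.8 to 209, 230 and 201 CPM (log2 2.09). Shh, the Hedgehog ligand that basal urothelial cells secrete, was at 0.192, 0.014 and 0.261 CPM in WT against 6.30, 7.11 and 5.77 CPM in KO (log2 change 5.399, SE 0.30, adjusted p = 1.94e-27). The WT level of Shh rests on few reads, and the log2 change ran from 4.74 without KO 2 to 6.01 without KO 3. Krt5, the defining keratin of basal cells, had 5341, 4190 and 4572 CPM in WT against 5251, 5781 and 6559 CPM in KO, an overlap of KO 1 with the WT range (log2 0.32, SE 0.14, adjusted p = 0.0534). It passed in 6 of 15 alternatives, among them limma voom (0.0341) and library totals (0.0238), so its call depends on the setting. Among the members called lower were the keratins Krt14, Krt17, Krt6a, Krt6b and Krt16, the laminin chains Lama3 and Lamb3, the adhesion genes Cd44 and Itgb1, and Tfap2a. Of 23 cornified envelope and squamous genes, 10 (43.5%, against 19.3% of all genes) were called higher and 5 (21.7%, against 19.2%) lower. Cnfn had 7.76, 3.73 and 3.73 CPM in WT against 32.4, 21.8 and 42.4 CPM in KO, and Rptn, also of the envelope, 13.5, 13.6 and 11.3 and then 50.7, 51.6 and 46.2 CPM. Sprr1b, an envelope precursor, fell from 11.2, 3.55 and 3.98 to 0.388, 0.350 and 0.493 CPM (log2 -3.78, and -3.17 without WT 1).

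Genes of cell division rose nearly throughout. Of 62 mitosis genes, 59 (95.2%, against 19.3% of all genes) were called higher and 0 lower. Of the 59, 51 were at least 2 times higher, and the median log2 of the list was 1.499. The 3 that did not pass were Bub3, Pttg1 and Gtse1. Ccna2, cyclin A, had 20.2, 9.97 and 11.04 CPM in WT against 65.2, 40.4 and 46.0 CPM in KO (log2 change 1.92, SE 0.12, adjusted p = 1.53e-23). Birc5, the chromosomal passenger protein survivin, had 15.8, 9.59 and 8.69 CPM and then 52.4, 31.5 and 41.8 CPM (log2 1.90), and the proliferation marker Mki67 12.02, 6.96 and 5.74 CPM and then 34.3, 21.9 and 25.3 CPM (log2 1.76, SE 0.13, adjusted p = 7.12e-20). Library 1 was the highest of its group in both genotypes for 50 of the 62 mitosis genes (80.6%), against 14.8% of all genes tested. The groups still did not overlap for 60 of the 62, against 42% of all genes.

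DNA replication genes followed, with 53 of 63 (84.1%, against 19.3% of all genes) called higher and 0 lower (median log2 0.92, 28 at least 2 times higher). Library 1 was the highest of its group in both genotypes for 29 of the 63 (46%), against 14.8% of all genes. Mcm5 and Mcm6, subunits of the replicative helicase, rose from 10.4, 6.59 and 5.07 to 28.4, 24.2 and 29.6 CPM (log2 1.94) and from 14.4, 10.3 and 9.99 to 44.1, 32.0 and 38.7 CPM (log2 1.73). Inhibitors of the cell cycle moved in both directions. Of 19 G1 cyclins, kinases and inhibitors, 5 (26.3%) were called higher, Cdkn1c, Cdkn2c and Cdkn2d among them, and 6 (31.6%) lower. Cdkn2a, which encodes p16 and p19Arf, fell from 366, 398 and 540 to 121, 153 and 183 CPM (log2 -1.51, SE 0.12, adjusted p = 1.02e-18), its neighbour Cdkn2b from 270, 272 and 314 to 132, 142 and 155 CPM (log2 -0.996) and Cdkn1a, the p53-induced inhibitor p21, from 785, 786 and 844 to 461, 458 and 538 CPM (log2 -0.73, SE 0.12, adjusted p = 4.57e-07). Cdkn1c, an imprinted inhibitor, rose from 2.51, 1.90 and 2.62 to 8.75, 9.07 and 10.5 CPM (log2 2.01, SE 0.17, adjusted p = 1.5e-17). Ccnd1, cyclin D1, stood at 1550, 1559 and 1734 CPM in WT against 1364, 1595 and 1419 CPM in KO, with overlapping groups (log2 -0.15, SE 0.13, adjusted p = 0.388). Of 34 p53 targets, 5 (14.7%, against 19.3% of all genes) were called higher and 13 (38.2%, against 19.2%) lower (median log2 -0.16). The death receptors Eda2r (log2 -1.35, SE 0.12) and Tnfrsf10b (log2 -0.76, SE 0.12) fell, and Ckap2, a spindle protein also on the p53 list, rose (log2 1.16, SE 0.15).

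The promoters of 4 of these genes are shown because they hold the motif known for their group, in capitals, in the 250 bases before the start. The cell cycle homology region, TTTGAA, is bound by the DREAM and MuvB complexes that time late cell cycle genes, and TTTCCCGC or TTTGGCGC by E2F factors, both searched on both strands. Mki67 holds TTTGAA 116 and 98 bases before its start, Ckap2 holds it 101 bases before, Mcm5 holds the E2F motif on the opposite strand 149 bases before, and Mcm6 holds it 110 and 47 bases before. The E2F motif is in 1.3% of all promoters in the table. Among other named genes, it is also in promoters of Phf19, Eef2k, Ifit2, Psmb9 and Tap1, which rose, and of Cdkn2a and Arid1a, which fell.
Mki67 (chr7:135716380-135716629, minus strand): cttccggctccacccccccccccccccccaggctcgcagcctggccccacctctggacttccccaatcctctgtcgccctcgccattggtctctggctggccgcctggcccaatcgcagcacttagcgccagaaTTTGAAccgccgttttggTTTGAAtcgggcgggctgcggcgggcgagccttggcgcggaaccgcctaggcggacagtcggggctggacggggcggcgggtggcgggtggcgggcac
Ckap2 (chr8:22185820-22186069, minus strand): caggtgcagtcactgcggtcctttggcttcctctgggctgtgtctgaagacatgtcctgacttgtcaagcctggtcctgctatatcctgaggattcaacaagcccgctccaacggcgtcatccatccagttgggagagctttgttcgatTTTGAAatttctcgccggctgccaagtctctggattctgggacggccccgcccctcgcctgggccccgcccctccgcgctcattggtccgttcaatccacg
Mcm5 (chr8:75109259-75109508, plus strand): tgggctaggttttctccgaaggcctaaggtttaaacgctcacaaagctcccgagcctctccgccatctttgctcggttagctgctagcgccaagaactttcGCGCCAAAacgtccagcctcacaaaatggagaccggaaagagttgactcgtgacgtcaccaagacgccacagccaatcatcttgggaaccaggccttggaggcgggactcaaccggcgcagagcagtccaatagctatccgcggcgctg
Mcm6 (chr1:128359706-128359955, minus strand): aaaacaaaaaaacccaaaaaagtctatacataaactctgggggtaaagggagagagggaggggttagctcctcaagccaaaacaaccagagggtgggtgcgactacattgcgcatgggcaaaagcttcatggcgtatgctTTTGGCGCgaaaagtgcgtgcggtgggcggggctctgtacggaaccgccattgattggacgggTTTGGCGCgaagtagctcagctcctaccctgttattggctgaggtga
A promoter was listed for 51 of the 62 mitosis genes (82.3%), and 20 of their 57 promoters (35.1%) held TTTGAA, against 16% of all 32851 promoters in the table. The same 57 promoters held TGACNNNGC, a motif of NRF2 searched in the same way, in 17.5% of cases against 10.2%. A match describes the letters and not binding, and no expression value was used in these shares. For the DNA replication list and for all genes called at least 2 times higher or lower, fewer than 80% of members had a promoter entry (77.8%, 74.7% and 71.6%), so the share was not read for them.

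Most genes of the extracellular matrix that passed the test fell. Of 36 tested basement membrane and matrix genes, 6 (16.7%) were called higher and 21 (58.3%) lower, against 19.3% and 19.2% of all genes. Of the 21, 12 were at least 2 times lower, and the median log2 of the list was -0.45. Fn1, fibronectin, fell from 76.5, 78.9 and 83.6 to 8.88, 13.9 and 7.55 CPM (log2 -3.02, SE 0.14, adjusted p = 5.42e-33), and Col4a2, a chain of basement membrane collagen, from 12.9, 11.3 and 12.8 to 1.28, 1.48 and 1.27 CPM (log2 -3.20, SE 0.17, adjusted p = 6.12e-28). Tgfbi, a matrix protein induced by TGF-beta, fell from 47.7, 46.2 and 40.2 to 8.19, 7.45 and 8.36 CPM (log2 -2.48). The genes called higher were Col4a6, Lamb2, Thbs2, Fbln2, Efemp1 and Ltbp2, so type IV collagen and laminin chains moved in both directions.

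Of 35 secreted proteases and inhibitors tested, 3 (8.57%) were called higher and 18 (51.4%) lower, against 19.3% and 19.2% of all genes (median log2 -0.44). Ctla2a, Ctla2b and Adam12 led, and the list was written with these falls known. Outside the named rule, the urokinase gene Plau went from 372, 419 and 388 to 117, 136 and 109 CPM (log2 -1.71), and the 3 that rose were Plat, Serpinb2 and Adamts1. In the list of TGF-beta signalling and epithelial to mesenchymal transition, 6 of 35 (17.1%) were called higher and 20 (57.1%) lower (median log2 -0.48). Inhba, which encodes the activin A subunit, fell from 94.7, 128 and 135 to 16.8, 27.4 and 16.7 CPM (log2 -2.58, SE 0.13, adjusted p = 4.93e-30). The 20 included the epithelial cadherin Cdh1 beside the mesenchymal Cdh2 and Vim, and the inhibitors Smad7 and Skil beside the ligands Tgfb1 and Tgfb3, so the list did not fall along 1 arm of the pathway.

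Integrins and hemidesmosome genes were called higher in 1 (3.57%) and lower in 12 (42.9%) of 28 cases, against 19.3% and 19.2% of all genes (median log2 -0.19). Itga5, the fibronectin receptor subunit, fell from 13.02, 13.7 and 14.8 to 2.75, 4.30 and 4.46 CPM (log2 -1.88), Fermt2, which activates integrins, from 5.72, 6.01 and 5.38 to 1.40, 1.61 and 1.33 CPM (log2 -1.98), and Itgb1, the common beta subunit, from 578, 634 and 612 to 350, 359 and 341 CPM (log2 -0.80). Targets of YAP, the effector of the Hippo pathway, were called higher in 1 (4.55%) and lower in 9 (40.9%) of 22 cases (median log2 -0.24). Nt5e, an enzyme that makes adenosine outside cells, fell from 60.8, 73.5 and 65.8 to 20.8, 22.6 and 15.9 CPM (log2 -1.77), and Ctgf, a matricellular protein, from 30.5, 41.9 and 56.4 to 13.9, 20.9 and 11.9 CPM (log2 -1.45). Its relative Cyr61 fell from 87.6, 89.6 and 103 to 55.2, 62.3 and 51.1 CPM (log2 -0.74, SE 0.12, adjusted p = 2.35e-07). The promoter of Cyr61, Ccn1 in RefSeq, is shown because it holds the motif GGAATG of TEAD factors, the partners of YAP, on the opposite strand 103 bases before the start (capitals). The motif is in 12.6% of all promoters in the table.
Cyr61 (chr3:145649986-145650235, minus strand): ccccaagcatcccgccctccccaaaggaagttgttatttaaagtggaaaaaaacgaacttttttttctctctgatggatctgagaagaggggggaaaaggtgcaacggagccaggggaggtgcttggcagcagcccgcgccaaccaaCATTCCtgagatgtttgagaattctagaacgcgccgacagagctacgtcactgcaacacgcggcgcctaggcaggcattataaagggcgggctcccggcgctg

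**Figure D3:**
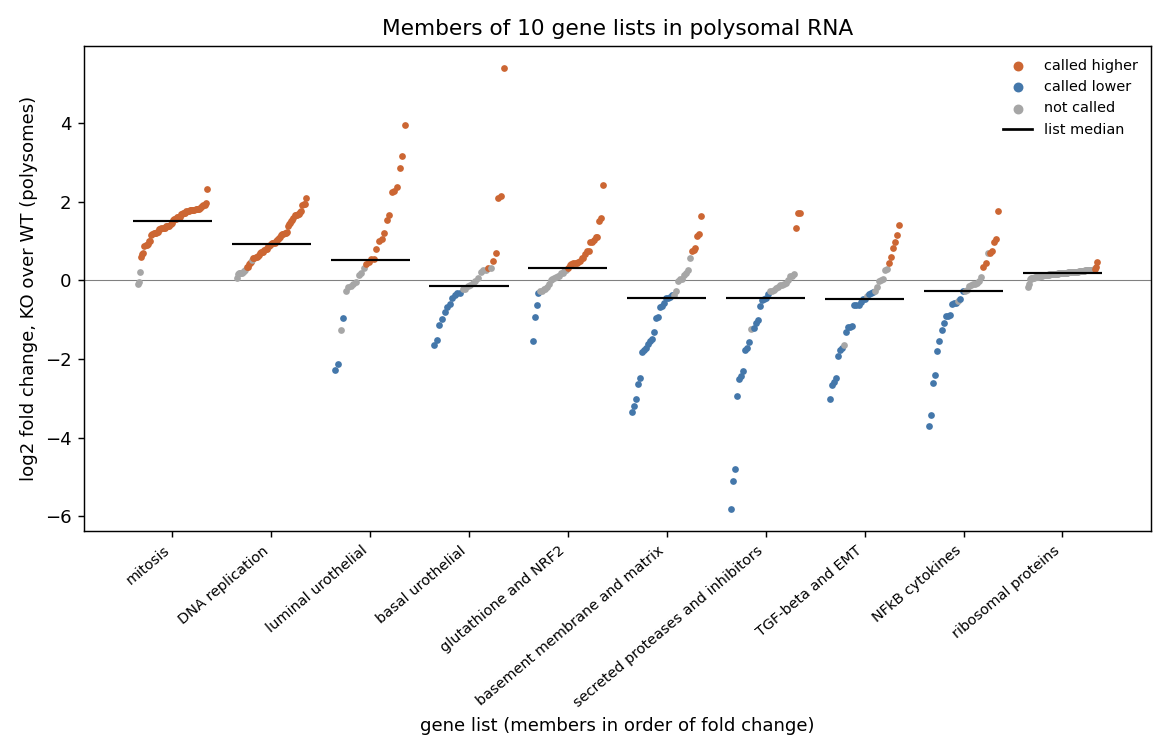
Log2 fold change between KO and WT polysomes of every tested member of 10 gene lists, in order within each list, with the list median as a bar. Nearly all mitosis and DNA replication genes lie above 0 (medians 1.499 and 0.92), the matrix, protease and TGF-beta lists reach below -3 with medians between -0.48 and -0.44, and the ribosomal proteins lie close to 0.

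Fibroblast markers, which could carry matrix genes into an epithelial culture, were sparse in the same libraries. Their summed level was 2.62 to 6.82 CPM in WT and 3.57 to 4.05 CPM in KO, where the matrix list summed to 1692 to 1929 and 1131 to 1360 CPM, and none of the 12 markers was at 0 in all libraries. Of the 5 tested, 2 were called higher (Dcn and Fbln1) and 2 lower (Col1a1 and Postn). WT 1 held 177 counts of Col1a1, 76 of Col1a2, 15 of Col3a1 and 10 of Col6a3, where WT 2 and WT 3 held 38 and 40 of Col1a1 and at most 1 of the other 3. Col1a1 was called lower (log2 -1.71, adjusted p = 0.000262), and not without WT 1 (adjusted p = 0.119) or KO 1 (0.0778). Postn, a matrix protein of stroma, had 34, 39 and 28 counts in WT and 0, 0 and 2 in KO. Dcn, a small matrix proteoglycan, had 14, 7 and 2 counts in WT and 42, 14 and 25 in KO (log2 1.75, adjusted p = 0.0122), and Fbln1 rose (log2 0.96, adjusted p = 0.000522; 0.0525 without KO 2). Over all alternatives, the one without WT 1 included, between 14 and 21 matrix genes were called lower. The part of stromal cells in the fall of matrix genes was not tested.

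The summed level of immune markers was 7.14 to 8.23 CPM in WT against 17.0 to 23.04 CPM in KO, nearly all of it from Cd68. Of 19 immune markers 1 was tested, this lysosomal protein, which rose from 8.04, 6.91 and 6.88 to 16.8, 22.9 and 20.2 CPM (log2 1.45, SE 0.14). The pan-leukocyte gene Ptprc had 0, 1 and 4 counts in WT and 0 in every KO library, and Cd3e, Adgre1, Lyz2, Tyrobp, C1qa and C1qb were at 0 in all 6. Of 10 endothelial markers, summing to 7.72 to 8.14 CPM in WT against 10.7 to 18.3 CPM in KO, 2 were tested. Egfl7 rose (log2 0.76) and Pecam1 did not pass (log2 0.30, adjusted p = 0.642), while Kdr, Tek, Emcn, Erg and Sox17 had no count in any library. Smooth muscle markers summed to 81.4 to 90.7 CPM in WT against 122 to 133 CPM in KO. Most of this sum was Smtn, a protein of the smooth muscle cytoskeleton, which rose from 78.6, 66.6 and 73.95 to 99.3, 96.97 and 112 CPM (log2 0.49). Acta2 rose (log2 1.56), Lmod1, an actin nucleator, fell (log2 -1.32) and Mylk, a myosin kinase, fell from 3.20, 4.97 and 4.14 to 0.075, 0.364 and 0.239 CPM (log2 -4.25), while Des and Actg2, which define muscle, had 1 count each over the 6 libraries. Of the nerve markers, Snap25, a protein of vesicle release, rose (log2 1.22) and Sox10 was at 0. The hemoglobin genes Hba-a1, Hba-a2, Hbb-b1 and Hbb-bs were at 0 in all libraries. Krt5 and Trp63, which define basal urothelium, were at 156 CPM or more in all 6 libraries.

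Lists of signalling genes held calls in both directions, several of them near the shares over all genes (19.3% higher and 19.2% lower). These shares were 20.8% and 25% in the AP-1 list, 27.8% and 27.8% in the Notch list and 30.8% and 23.1% in the prostaglandin list. Of 35 Wnt pathway genes 11 (31.4%) were called higher and 10 (28.6%) lower, and 8 and 9 without the block. Wif1 rose as given above, while the ligands Wnt5a (106, 113 and 122 to 18.5, 25.1 and 20.7 CPM, log2 -2.42) and Wnt7a (61.2, 53.6 and 60.6 to 13.4, 16.4 and 16.7 CPM, log2 -1.92) fell. In the Notch pathway 5 of 18 were called higher and 5 lower, and 2 and 4 without the block (2 higher also without WT 2 or without KO 2, and 3 without KO 3). The ligand Jag1 fell from 217, 206 and 232 to 77.7, 94.3 and 74.7 CPM (log2 -1.41), the target Nrarp from 252, 245 and 299 to 108, 79.8 and 112 CPM (log2 -1.42), and the ligand Dll1 rose from 14.8, 8.45 and 10.1 to 23.6, 20.97 and 22.5 CPM (log2 1.04). Of 29 genes of MAP kinase feedback and EGF-type ligands, 7 (24.1%) were called higher and 10 (34.5%) lower. Among those higher were Fgfr3 and the feedback inhibitor Spry1 (log2 1.196), and among those lower Fgf1 (log2 -1.30). AP-1 and immediate early genes were called higher in 5 and lower in 6 of 24 cases (3 higher without the block, 2 without KO 2, and 3 without WT 2, WT 3 or KO 3), with Klf4 up (log2 0.93) and Ier3 down (log2 -0.92). Of 13 prostaglandin genes 4 were called higher and 3 lower. Beside the fall of Slco2a1, Ptges, the last enzyme of prostaglandin E2 synthesis, rose from 159, 147 and 145 to 272, 236 and 292 CPM (log2 0.82, SE 0.12). In the IGF list H19 and Igf2 rose and Htra1, a protease that cleaves IGF-binding proteins, fell (log2 -1.22). Of 22 tight junction genes 10 (45.5%) were called higher and 1 (4.55%), Cldn6, lower, but 4 and 3 were higher without WT 2 and without KO 2.

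Inflammatory mediators and interferon genes parted. NFkB cytokines and regulators were called higher in 7 (20.6%) and lower in 16 (47.1%) of 34 cases, against 19.3% and 19.2% of all genes (median log2 -0.28). With Csf2 and Ccl2, the interleukin subunit Il23a fell, from 22.001, 30.9 and 31.5 to 4.18, 6.01 and 5.59 CPM (log2 -2.42, SE 0.14, adjusted p = 2.45e-27). The 7 that rose were Il18, Il33, Cxcl10, Cxcl15, Ccl20, Nfkbiz and Tnfaip2, 4 of them without WT 3 or without KO 3. Interferon response genes were called higher in 18 (45%) and lower in 5 (12.5%) of 40 cases (median log2 0.32). Ifit2, an antiviral RNA-binding protein, rose from 1.495, 1.96 and 1.70 to 9.71, 9.20 and 8.15 CPM (log2 2.40), Oas1a, a sensor of viral RNA, from 1.82, 1.67 and 1.08 to 7.54, 7.77 and 9.44 CPM (log2 2.44) and Ifi27 from 4.73, 5.23 and 4.81 to 12.5, 16.5 and 16.4 CPM (log2 1.61). Of the 50-base stretches of Oas1a transcripts, 57.6% recur in other transcripts, most often of Oas1g, which was also called higher, so reads of the pair may not be separable. Irf1, Gbp2, Gbp7, Zbp1 and Ifitm3 were called lower. The summed level of the 43 listed interferon genes was lower in KO, 2157 to 2646 CPM against 2657 to 3574 CPM in WT. More members were called higher, while the sum of the list went down. MHC class I genes were called in 5 of 21 cases, 14.3% higher and 9.52% lower against 19.3% and 19.2% of all genes. The 3 higher and 2 lower became 3 and 4 in the fit on all 18 organoid libraries and 2 and 3 without KO 2, and 1 was lower without WT 2. The peptide transporter Tap1 (log2 0.62) and the immunoproteasome subunit Psmb9 (log2 0.69) rose. These genes overlap on opposite strands, so reads of the overlap may not be separable. B2m, the light chain, fell from 395, 484 and 410 to 311, 329 and 299 CPM (log2 -0.45, adjusted p = 0.00136, and 0.071 without WT 2).

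In the glutathione, glycolysis and cholesterol lists, most of the members tested were called higher. Glutathione and NRF2 genes were called higher in 21 (51.2%) and lower in 4 (9.76%) of 41 cases, against 19.3% and 19.2% of all genes (median log2 0.30). Beside Gstm1, the cystine transporter Slc7a11 rose from 49.5, 52.3 and 51.5 to 149, 171 and 139 CPM (log2 1.58, SE 0.12, adjusted p = 4.24e-20). Mgst2, a membrane glutathione transferase, fell from 44.9, 52.1 and 51.5 to 15.4, 14.9 and 20.7 CPM (log2 -1.55), with Gss, Mgst1 and Akr1b8. Promoters were listed for 34 of the 41 genes (82.9%), and 8 of their 44 promoters (18.2%) held TGACNNNGC, against 10.2% of all promoters. The AP-1 motif, which the NRF2 motif can overlap, was in 13.6% of them against 6.75%. The mitosis promoters held TGACNNNGC in nearly the same share, 17.5%, so it was not particular to this list. Aldehyde dehydrogenase and retinoid genes were called higher in 9 and lower in 5 of 24 cases, 37.5% and 20.8% against 19.3% and 19.2% of all genes. Aldh3a1 went up from 132, 116 and 110 to 328, 376 and 463 CPM (log2 1.69). Aldh1a3, which makes retinoic acid, went down from 208, 213 and 203 to 76.8, 84.0 and 67.1 CPM (log2 -1.46).

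Glycolysis and hypoxia genes were called higher in 24 (68.6%) and lower in 2 (5.71%) of 35 cases, against 19.3% and 19.2% of all genes (median log2 0.47). Aldoc, an aldolase, rose from 47.1, 39.2 and 48.5 to 111, 138 and 135 CPM (log2 1.51), and the lactate exporter Slc16a3 from 0.70, 0.458 and 0.815 to 3.96, 4.28 and 4.25 CPM (log2 2.68). The 2 that fell were Car12, a carbonic anhydrase (log2 -1.45), and Ddit4, an inhibitor of mTOR signalling (log2 -0.56). Cholesterol synthesis genes were called higher in 15 (60%) and lower in 1 (4%) of 25 cases (median log2 0.40). Without WT 2 or without KO 2, 9 were higher. Among the 15 were Pmvk, a kinase of the mevalonate pathway, from 62.6, 50.7 and 57.4 to 106, 107 and 133 CPM (log2 1.02) and Lss, which closes the sterol rings (log2 1.03). Fatty acid synthesis genes were called higher in 7 (35%) and lower in 3 (15%) of 20 cases, with the desaturase Fads1 up (log2 0.80) and Fads3 down (log2 -1.12).

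**Figure D4:**
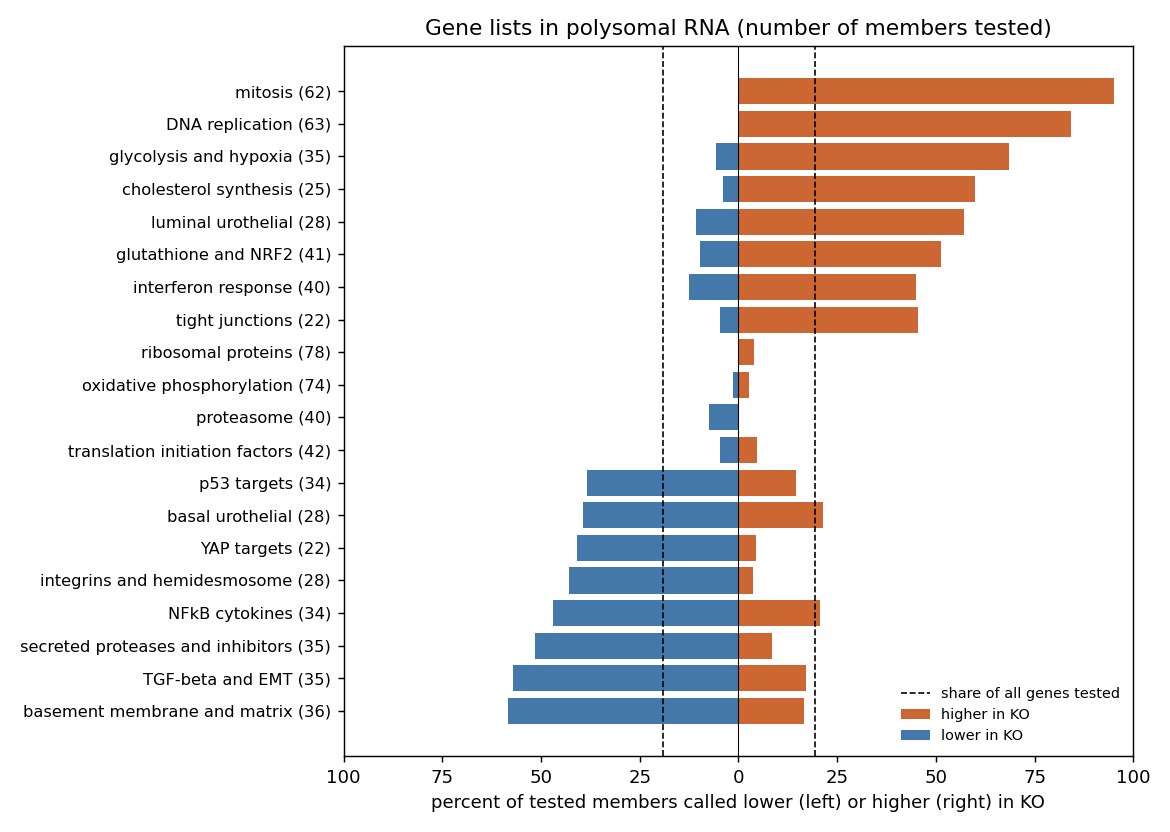
Percent of tested members called higher (right) or lower (left) in KO polysomes for 20 gene lists, with the number tested in parentheses. Dashed lines mark the share of all genes tested that was called (19.3% higher, 19.2% lower); 59 of 62 mitosis genes and 21 of 36 matrix genes stand beyond them, while the ribosomal protein, oxidative phosphorylation, proteasome and initiation factor lists fall short on both sides.

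Few genes of the machinery of protein synthesis passed the test. Of 78 ribosomal protein genes, 3 were called higher and 0 lower, where 38.5% of all genes were called (median log2 0.19). Rps29 had 83.5, 95.3 and 101 CPM in WT against 127, 110 and 149 CPM in KO (log2 change 0.46, SE 0.12, adjusted p = 0.000854), and Rpl37a and Rpl39 passed narrowly (adjusted p = 0.0194 and 0.049) and not without the block (0.0901 and 0.193). With library totals in place of TMM factors, which shifts the median of all genes to 0.0465, 15 ribosomal protein genes were called higher and 0 lower. Library 3 was the highest of its group in both genotypes for 49 of the 78 (62.8%), against 19.1% of all genes. Many ribosomal protein genes have near-identical pseudogenes, which makes single counts uncertain.

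Of 42 initiation factor genes 2 (4.76%) were called higher and 2 (4.76%) lower, against 19.3% and 19.2% of all genes. Eif4e3, a cap-binding protein, fell from 72.9, 75.8 and 68.6 to 48.0, 43.3 and 44.4 CPM (log2 -0.68, SE 0.12, adjusted p = 1.09e-06), and Eif4ebp2, a repressor of cap binding, rose from 25.8, 20.2 and 24.8 to 37.9, 31.2 and 27.4 CPM (log2 0.44, adjusted p = 0.00202; 0.0782 without WT 2 and 0.0971 without KO 2). Among 31 genes of elongation and its control 3 (9.68%) were called higher and 4 (12.9%) lower, and 4 and 3 with library totals. Eef2k, the kinase that inactivates the elongation factor Eef2, rose from 86.5, 71.6 and 75.1 to 122, 138 and 148 CPM (log2 0.81, SE 0.12, adjusted p = 2.29e-08), with every KO library above every WT library. Eef2 itself had 2287, 2252 and 2531 CPM in WT against 1999, 2052 and 2691 CPM in KO, with overlapping groups (log2 -0.08, SE 0.13, adjusted p = 0.673), and Myc, which drives ribosome production, had 143, 96.2 and 107 and then 121, 107 and 93.2 CPM (log2 -0.10, SE 0.12, adjusted p = 0.559). Ribosome biogenesis genes were called higher in 6 (9.38%) and lower in 1 (1.56%) of 64 cases, and in 0 and 0 without the block. Oxidative phosphorylation genes were called higher in 2 (2.7%) and lower in 1 (1.35%) of 74 cases. Proteasome genes were called lower in 3 (7.5%) of 40 cases and higher in 0. These 3 became 0 without the block, WT 2 or KO 2, 1 without WT 3 or KO 3, and 8 in the fit on all 18 organoid libraries. Of 46 Atf4 targets and tRNA synthetases, 9 (19.6%, against 19.3% of all genes) were called higher and 4 (8.7%, against 19.2%) lower. Among those higher was the serine synthesis enzyme Psat1 (263, 198 and 169 to 489, 406 and 388 CPM, log2 1.04). Of 52 genes of the endoplasmic reticulum, 6 were called higher and 10 lower, 11.5% and 19.2% against 19.3% and 19.2% of all genes. The lower calls were thus at the share over all genes. They became 4 without WT 2 or without KO 2, 6 without WT 3, without KO 3 or without the block, and 18 in the fit on all 18 organoid libraries. The signal peptidase subunit Spcs3 went down from 340, 427 and 393 to 225, 240 and 165 CPM (log2 -0.89, SE 0.12).

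Whether polysomes changed apart from the whole mRNA pool was tested as the KO effect in polysomes minus the KO effect in total RNA, over 12 libraries. By edgeR's quasi-likelihood test 0 of 13507 genes passed (0%), and 390 had an unadjusted p under 0.05. The smallest adjusted p was 0.914, shared by Krt10, Tango6 and Ubb, chosen after their values were seen. The difference was -0.04 (SE 0.16) for H19, whose log2 changes were 4.62 in polysomes and 4.69 in total RNA. Its median was 0.017 over all genes, -0.017 for mitosis, 0.072 for the matrix list, -0.089 for NFkB cytokines and 0.086 for ribosomal proteins, and no member of any list passed. DESeq2 called 3 genes and the fit with no filter on low counts 10. A difference that misses the threshold does not show that loading was the same.

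Against the subpolysome fraction, whose libraries labelled KO showed no fall of Arid1a, 12 of 13392 genes (0.0896%) passed, and 1039 had an unadjusted p under 0.05. The largest rise and fall of well expressed genes in polysomes, of H19 and Ctla2a, were also seen in subpolysomes. Their log2 changes there were 4.56 and -5.87, beside 4.62 and -5.81 in polysomes. Without the replicate block 1 passed, and leaving out single libraries left 0 to 19, with 0 without polysome WT 1, polysome KO 1 or subpolysome KO 3. Ttll5, which adds glutamate chains to tubulin, fell in both fractions and less in polysomes: its log2 changes were -1.58 in polysomes and -2.61 in subpolysomes, where it had 76.2, 106 and 127 CPM in WT against 15.5, 18.6 and 15.5 CPM in KO (difference 1.04, SE 0.18, adjusted p = 0.0184). Ttll5 overlaps Tgfb3 on the opposite strand, and Tgfb3 was also called lower in polysomes, so reads of the pair may not be separable. Calcb, a calcitonin-related peptide, rose more in polysomes (24.3, 28.01 and 29.9 to 85.7, 83.1 and 97.3 CPM) than in subpolysomes (16.3, 17.7 and 18.5 to 32.7, 30.5 and 32.8 CPM), a difference of 0.84 (SE 0.16, adjusted p = 0.0313). Spp1, the matrix phosphoprotein osteopontin, fell more in polysomes (log2 -2.65 against -1.66, difference -0.98, SE 0.19, adjusted p = 0.037). Rsrp1 and Wsb1 fell in polysomes (log2 -0.998 and -0.61), and their log2 changes in subpolysomes were 0.23 and 0.31. The remaining 7 genes were Rn45s, Mir6236, Mir6240, C1s1, Shmt1, Dnase1l2 and D730001G18Rik, of which the first 3 vary widely between libraries: Rn45s had 16445, 2100 and 28607 CPM in WT polysomes and 6263, 2984 and 4887 CPM in KO polysomes. Its fall in polysomes did not pass with DESeq2 (adjusted p = 0.491).

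**Figure D5:**
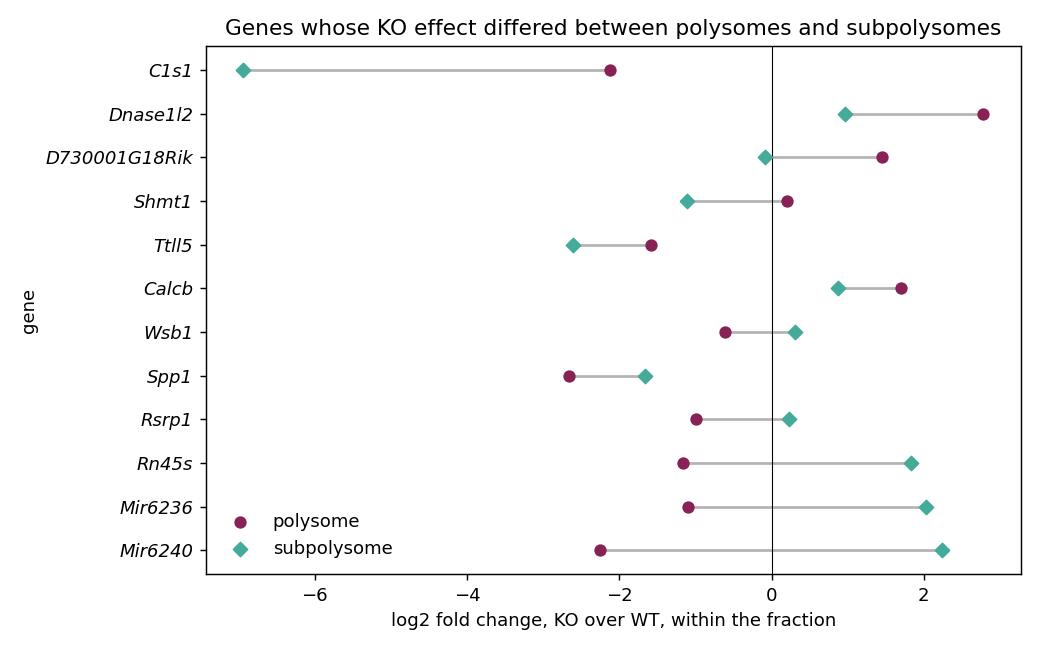
Log2 fold change between KO and WT within polysomes (circles) and within subpolysomes (diamonds). Shown are the 12 genes that passed the test of the difference between fractions with the replicate block (1 passed without it). Rn45s, Mir6236, Mir6240, Wsb1 and Rsrp1 lie below 0 in polysomes and above 0 in subpolysomes, and C1s1 has the widest gap (4.96).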

How the data were processed

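Polysomal RNA of 3 WT and 3 KO organoid libraries was analysed, with 12 total RNA and subpolysome libraries for the differences between fractions. The 4 cancer libraries were not used here. The authors deposited raw counts of reads for 24421 gene symbols; HTSeq, Bowtie and the mm10 build are named in the submitters' processing notes, while versions, annotation, strand and multi-mapping rules are not given in the sources read here. Without strand, overlapping antisense genes cannot be told apart.

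Counts were fitted with edgeR 4.0.16 (R 4.3.3): TMM, filterByExpr, quasi-likelihood F test, replicate number as a block (every same-number correlation was above 0.1; the pairing comes from the labels' replicate numbers), Benjamini-Hochberg adjustment over all genes tested, threshold 0.05. Standard errors were derived from the fold change and its F statistic (log2 change divided by root F). Differences between fractions used blocks within each fraction. Genes were named by rule: from calls whose groups do not overlap at a mean log2 CPM of 4 or more, the 10 largest changes each way; from each of 43 lists, its 3 members of smallest p; and a fixed set; a few of these genes are not reported here. The members and lists were chosen with earlier results of these data known. Alternatives were no block, RLE factors, library totals, no filter, DESeq2 1.42.0, all 18 organoid libraries, Rn45s left out, single libraries left out and, added after the data were seen, robust estimation and limma 3.58.1 (voom). Fits were tested on simulated data. Coordinates are GENCODE M21 (GRCm38); 106 of 145 named genes had a RefSeq promoter entry. Promoter direction was checked on 141 entries: the bases after the start occurred in the gene's own transcripts as written in 104 and reversed in 0.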

Additional observations from a re-analysis of the deposited data

Results flagged for a closer look

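For 12 genes the KO effect differed between polysomes and subpolysomes by the test of the difference itself. Without the replicate block 1 passed, and 0 without polysome WT 1, polysome KO 1 or subpolysome KO 3. The difference is given here as the log2 change in polysomes minus that in subpolysomes, where the libraries labelled KO showed no fall of Arid1a. It was -4.48 for Mir6240, -3.11 for Mir6236 and -2.99 for Rn45s, 3 rows whose levels in WT polysomes spread over more than 10 times. It was 4.96 for C1s1, a complement protease with 0.02, 0 and 0.026 CPM in KO subpolysomes, where the size of this difference rests on almost no reads. It was 1.84 for Dnase1l2, a DNase of epidermis, 1.55 for the uncharacterised D730001G18Rik, 1.33 for Shmt1, the cytosolic serine hydroxymethyltransferase, 1.04 for Ttll5 and 0.84 for Calcb. It was -1.22 for Rsrp1, -0.98 for Spp1 and -0.90 for Wsb1. Shmt1 had 11.3, 8.59 and 7.76 CPM in WT polysomes and 11.5, 9.51 and 10.6 CPM in KO polysomes (log2 0.21, adjusted p = 0.256), and fell in subpolysomes (log2 -1.11, adjusted p = 9.19e-06). Dnase1l2 rose in polysomes from 1.32, 1.22 and 0.848 to 7.20, 7.83 and 8.28 CPM.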

How the results depend on the processing

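The numbers of genes higher and lower in KO polysomes were 1950 and 1807 with no replicate block, 2560 and 2516 with RLE factors, 2824 and 2162 with library totals (56.6% of calls higher, against 50.2%), 2472 and 2479 with no filter, 2340 and 2308 with DESeq2, 2162 and 2754 in the fit on all 18 libraries (44% higher), 2565 and 2553 with robust estimation and 2531 and 2515 with limma voom, the last pair of settings chosen after the data were seen. Without single libraries they ran from 1882 to 2349 and from 1710 to 2376. Leaving out a library also removes its same-numbered partner from the blocked estimate. Among genes called in both, 0 changed direction in any of these settings. Without the block 11 of 145 named genes no longer passed. For the difference from total RNA the counts were 0 with no block, 10 with no filter, 3 with DESeq2 and 0 to 1 without single libraries (1 without polysome WT 2 or KO 2). For the difference from subpolysomes they were 1 with no block, 50 with no filter, 32 with DESeq2, 14 with limma voom and 0 to 19 without single libraries (19 without subpolysome WT 1 or KO 1, 3 without subpolysome WT 3, 4 or 5 without polysome WT 2, WT 3, KO 2 or KO 3). The cause was not tested. Among the named genes reported here, the sign turned for the uncalled Pecam1 (-0.2417 without WT 3 or KO 3, up to 1.0471 without WT 2). Mitochondrially encoded genes were not analysed here, so the planned run without them and Rn45s left out Rn45s alone.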

Other observations

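Some weakly expressed genes were close to present in 1 genotype only. By a rule chosen after the data were seen (at least 50 counts in each of 3 libraries and at most 3 in each library of the other genotype), 5 genes were seen in WT and 5 in KO. Rgs4, a regulator of G protein signalling, had 288, 513 and 396 counts in WT polysomes and 0, 2 and 1 in KO polysomes. Stac, an adaptor of calcium channels, had 168, 143 and 135 counts and then 1, 0 and 0, Chst2, a sulfotransferase, 136, 104 and 93 and then 1, 1 and 1, and Pcdh19, a protocadherin, 62, 50 and 52 and then 2, 0 and 1. Rasgrp3, an activator of Ras, had 53, 133 and 96 counts in WT and 2, 1 and 1 in KO.

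In the other direction, Alpl, the tissue-nonspecific alkaline phosphatase, had 2, 0 and 0 counts in WT and 136, 139 and 132 in KO, and Prr16 had 1, 1 and 1 and then 108, 117 and 51. Calcrl, the receptor for adrenomedullin and calcitonin gene-related peptide, had 2, 2 and 3 counts in WT and 250, 215 and 146 in KO. Asz1, a germ cell gene, had 0, 1 and 3 and then 166, 143 and 86 counts, and Tmem108 had 3, 1 and 1 and then 83, 94 and 50. Gene families grouped by symbol after the data were seen showed 12 of 18 glutathione transferases called higher and 0 lower, where 19.3% and 19.2% of all genes were called. Of 325 Zfp zinc finger genes, 29 were called higher and 65 lower, the latter near the share over all genes. These were picked from 16 families looked at.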
